A study of Mus musculus with 117 samples.

Results

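Astrocytes of the mouse spinal cord were examined 2 d after spinal cord injury (SCI) and compared with astrocytes of uninjured mice. The comparison used 9 of the 117 sequencing libraries of the series, taken by their titles as the astrocyte libraries of 5 mice at 2 d after SCI and of 4 uninjured mice. All 9 mice carried the genotype labelled Aldh1l1-CreERT2 -RiboTag and were labelled female, and the study describes its mice as young adults. In these mice the Aldh1l1 promoter drives a Cre that works only after tamoxifen, and Cre then switches the ribosomal protein Rpl22 to a form that carries a hemagglutinin tag. An antibody to the tag pulled down ribosomes with the mRNA they carried, and this RNA gave the astrocyte library of a mouse. RNA left in solution gave the flow-through library of the same mouse, which holds the RNA of the tissue that the antibody did not take. The injury was a complete crush at thoracic level, the tissue was a block centred on the lesion, and uninjured mice gave the matching stretch of cord. Libraries therefore average over astrocytes that lie next to the lesion and astrocytes further away within the block. The 4 astrocyte libraries of mice at 42 d after SCI are set beside the 2 d libraries where useful.

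Astrocytes take up glutamate and GABA, buffer potassium, wrap blood vessels with endfeet that carry water channels, and supply neurons with metabolites and lipids. After damage they become reactive, a state known for more intermediate filament protein, for cytokine signalling through JAK-STAT3 and NF-kB, and near a lesion for division and the building of a border. Reads on ribosome-bound mRNA report what is available for translation, so a gene can change here through its mRNA level or through its loading on ribosomes.

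Values are counts per 1000000 counts of a library (CPM) after TMM scaling, and changes are log2 fold changes of 2 d over uninjured mice with their standard error (SE), fitted with edgeR and tested by quasi-likelihood, with p-values adjusted by Benjamini-Hochberg over all genes tested. The SE was derived from the test, as the absolute log2 fold change over the square root of the F statistic. A gene is said to have risen or fallen only where its adjusted p was under 0.01. Values of single mice are listed from mouse 1 to mouse 4 for uninjured mice and from mouse 1 to mouse 5 for 2 d mice. Total counts were 95831369 to 123505722 per uninjured astrocyte library and 72619805 to 90452378 per 2 d library. Counts of mitochondrial genes took 0.337% to 0.606% of uninjured and 0.179% to 0.229% of 2 d astrocyte libraries. Flow-through libraries had 99521160 to 115137979 counts in uninjured and 40710428 to 75175387 in 2 d mice. Their mitochondrial share was 5.72% to 6.80% and 1.09% to 2.65%, with 19506 to 19818 and 15763 to 17934 genes detected. The part of these shifts in the flow-through changes below was not tested. The gene rows of all 2 d and 42 d astrocyte files stand in another order than those of the uninjured files. The 2 d flow-through file of mouse 2 has the row order of the uninjured files, and the others have that of the 2 d astrocyte files. Whether row order marks a processing run is not stated. Whatever goes with it cannot be told apart from the injury in the comparison of astrocyte libraries with uninjured mice, while 2 d and 42 d share the order. In such libraries, fewer cells of a type and less RNA per cell cannot be told apart either.

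Markers of 14 cell types were used to check the label. All 14 astrocyte markers were detected in every library, and their summed level was 82606 to 95795 CPM in uninjured and 31115 to 41759 CPM in 2 d astrocyte libraries. Set against the flow-through library of the same mouse, these markers had a mean log2 ratio of 4.72 ± 0.08 (SD, n = 4) in uninjured mice. At 2 d it was 3.33 ± 0.38 (SD, n = 5), still above flow-through with a smaller margin. Of these markers 11 of 14 themselves fell at 2 d in astrocyte libraries, so the ratio does not measure purity alone. Neuron markers lay far below flow-through in uninjured mice, at a mean log2 ratio of −4.12 ± 0.07, and at −1.28 ± 0.70 at 2 d, when neuron markers in flow-through had dropped from 11040.0 to 12745 CPM to between 597 and 1608 CPM. Markers of myeloid cells moved with the injury in the astrocyte libraries. All 14 pan-myeloid markers rose, and their sum went from 77.8 to 144 CPM to 1962 to 3483 CPM, at a mean log2 ratio to flow-through of −1.79 ± 0.04 at 2 d. Monocyte and macrophage markers went from 29.7 to 90.02 CPM to 1664 to 3927 CPM, and 11 of 12 rose. Neutrophil markers summed to 114 to 472 CPM and 509 to 1397 CPM, with 6 of 12 risen. No pan-myeloid, monocyte or neutrophil marker was at 0 in any astrocyte library. The monocyte and the neutrophil lists stood above flow-through at 2 d, with mean log2 ratios of 1.23 ± 0.35 and 2.15 ± 0.56, against 0.09 ± 0.32 and 1.55 ± 0.17 in uninjured mice. Oligodendrocyte markers fell from 3637 to 8274 CPM to 1248 to 3034 CPM, with 6 of 10 fallen, and the uninjured libraries of mice 1 and 2 held the most of them. Of the remaining lists, 5 of 8 microglia markers rose and 2 fell, and 4 of 7 endothelial and 1 of 6 T cell markers rose and none fell. Of 9 pericyte and fibroblast markers 1 rose and 3 fell, and of 5 erythrocyte markers 1 rose and 1 fell. The erythrocyte list also stood above flow-through, with mean log2 ratios of 2.42 ± 0.58 in uninjured mice and 1.72 ± 0.55 at 2 d. Of 12 neuron markers 9 fell and 1 rose, and of 6 ependyma markers 4 fell and 1 rose. In the Schwann cell and OPC (oligodendrocyte precursor) lists 4 of 6 markers fell and none rose. Over all genes tested 30.2% rose and 29.9% fell. The part of these cells in the results that follow was not tested.

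**Figure D1:**
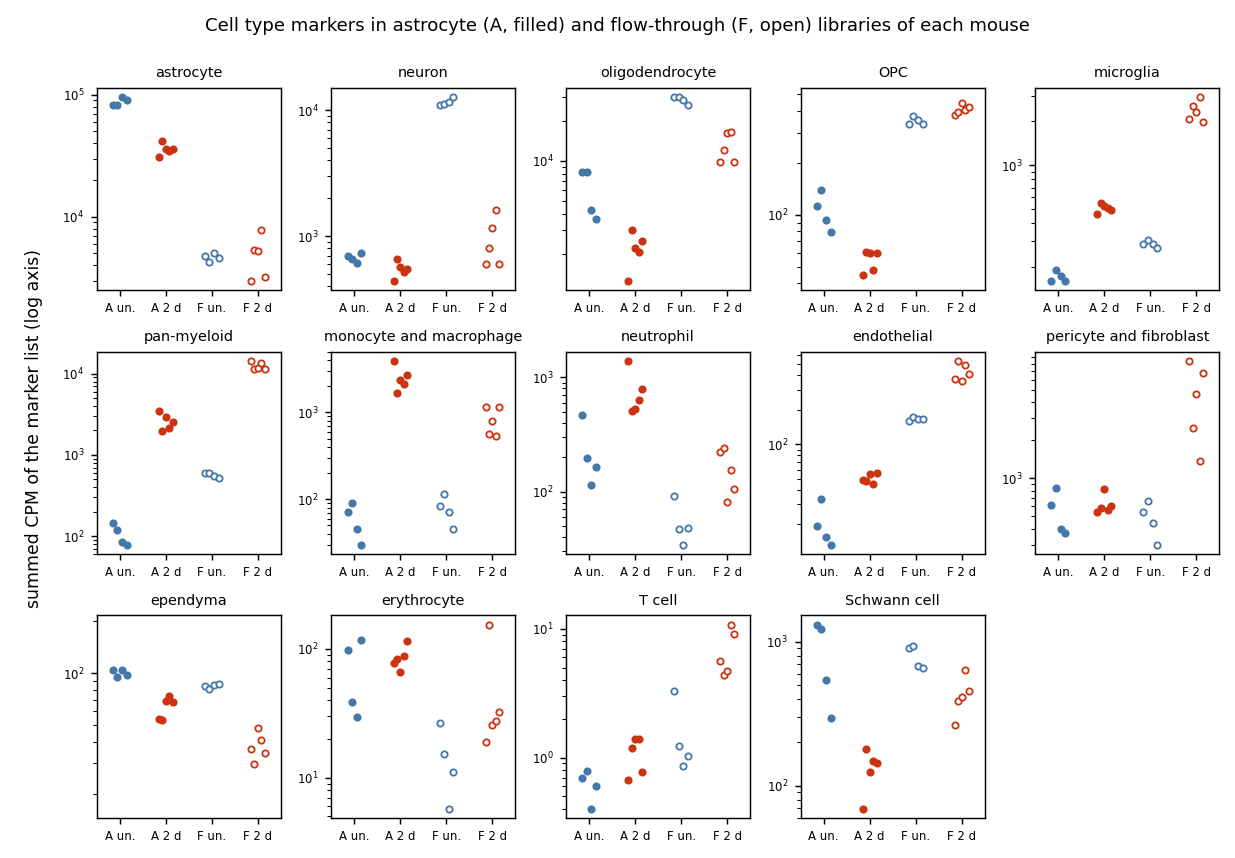
Summed CPM (log axis) of the 14 marker lists in each mouse, for astrocyte libraries (A, filled) and flow-through libraries (F, open) of uninjured (blue, n = 4) and 2 d (red, n = 5) mice. In astrocyte libraries the astrocyte sum stays above every other list at 2 d (31115 to 41759 CPM), while the pan-myeloid sum goes from at most 144 to at least 1962 CPM.

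Of 18205 genes tested, 10933 (60.1%) changed at 2 d, with 5492 (30.2%) higher and 5441 (29.9%) lower than in uninjured mice. These shares are the background for each gene list below, as is the median log2 fold change of −0.04 over all genes tested. The CPM ranges of the 2 d and uninjured mice did not overlap for 10705 genes (58.8%). Of the genes called, 4654 changed by less than 2-fold, 3082 were at least 2-fold and 953 at least 8-fold higher, and 3197 were at least 2-fold and 444 at least 8-fold lower. A group of 168 genes that rose had 3 counts or fewer in every uninjured library, and for those named the fold stated is a minimum, the 2 d mean over the level worth 3 counts per library.

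Per kb of exon, the genes that gained most were a mixed set of stress, cytoskeletal and secreted proteins. Mt2, a metallothionein that binds zinc and copper, had 2329.9 CPM per kb on average in uninjured mice and 5595 at 2 d. Actb, cytoplasmic beta-actin, went from 1154 to 3639.5 CPM per kb, and Hspb1, a small heat shock protein, from 40.1 to 2512. Spp1, the secreted phosphoprotein osteopontin, went from 51.4 to 2216 CPM per kb, but its level at 2 d was lower in astrocyte than in flow-through libraries (log2 ratio −1.81 ± 0.34, edgeR adjusted p = 1.1e-04). S100a6, a calcium-binding protein, Vim, the intermediate filament vimentin, Lgals1, the lectin galectin-1, and Hmox1, heme oxygenase 1, reached 1955, 1692, 1445 and 1335 CPM per kb from 172, 85.6, 89.9 and 9.03. The largest losses per kb were in genes with high levels in uninjured mice. Ckb, brain creatine kinase, dropped from 6043 to 1710.5 CPM per kb, Sparcl1, a secreted synapse-promoting protein, from 4480.1 to 637, and Aldoc, the brain aldolase, from 4082 to 747. Atp1b2, a sodium pump subunit, went from 3799 to 946 CPM per kb, Ndrg2 from 3577 to 908, and Cst3, the protease inhibitor cystatin C, from 3420.3 to 1148. Apoe, the main lipid carrier of the brain, went from 5168 to 1412 CPM per kb. Apoe stood at 17141, 16071, 16223 and 19797 CPM in the uninjured and 5110.5, 4357, 4619, 5078 and 4476 CPM in the 2 d mice, with no overlap (log2 fold change −1.87 ± 0.13, edgeR adjusted p = 4.0e-13). In flow-through libraries of these mice Apoe rose by 3.73 ± 0.21, and the difference between the changes was −5.49 ± 0.22 (edgeR adjusted p = 3.0e-12). Ptgds, prostaglandin D synthase, was also among the losses, at 4235, 6788, 902 and 457 CPM in uninjured and 493, 1065, 805, 724 and 879 CPM in 2 d mice. Its ranges overlapped, uninjured mice 1 and 2 held the high values, and without those mice its log2 fold change was 0.23 in place of −1.96.

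**Figure D2:**
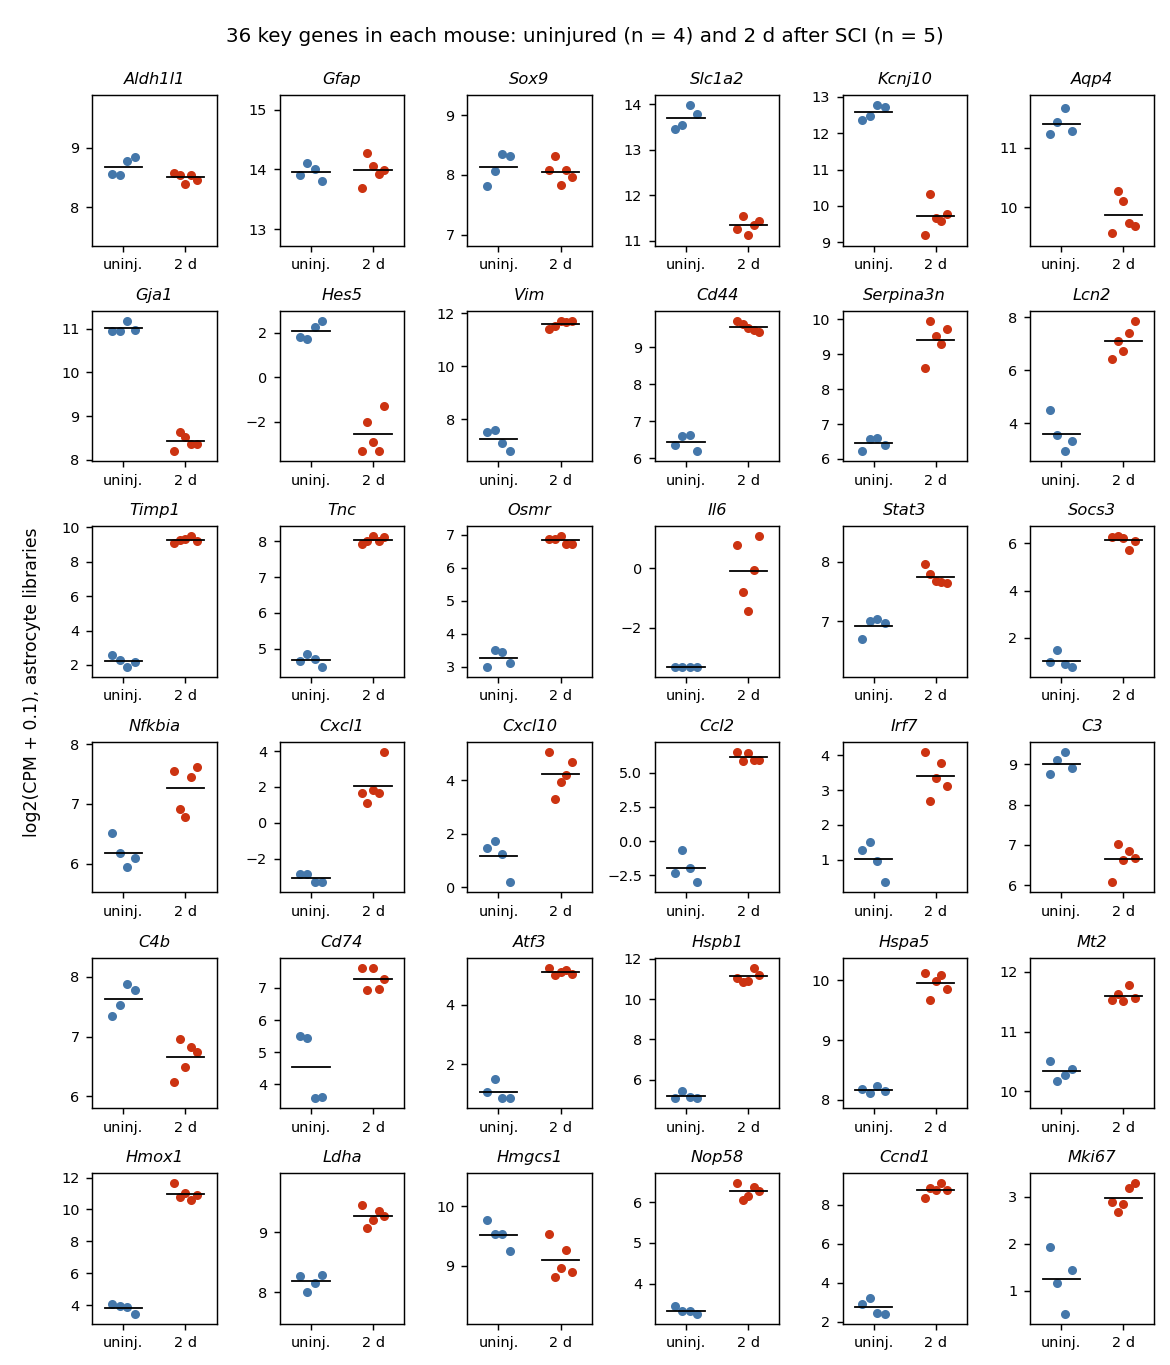
Level of 36 key genes, log2(CPM + 0.1), in each astrocyte library of uninjured (blue, n = 4) and 2 d (red, n = 5) mice, with a bar at the group mean. Gfap, Aldh1l1 and Sox9 overlap between groups, transport and endfoot genes such as Slc1a2 and Kcnj10 lie lower at 2 d, and genes such as Timp1, Hmox1, Hspb1 and Ccnd1 lie far higher.

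The astrocyte identity genes did not move together. Gfap, the intermediate filament used to see astrocytes, was at 15444, 17731, 16402 and 14253 CPM in uninjured and 13289, 19827, 17118, 15478 and 16315 CPM in 2 d mice, with ranges that overlapped and a log2 fold change of 0.04 ± 0.11 (edgeR adjusted p = 0.76). Aldh1l1, the folate enzyme whose promoter drives the Cre, was at 377, 370.2, 437 and 461 and 382.3, 373, 335.4, 373.7 and 352 CPM, again with overlap (−0.18 ± 0.10, adjusted p = 0.11). Sox9, a transcription factor of the astrocyte lineage, was at 225, 267, 325 and 320.1 and 273, 319.8, 226, 269.7 and 250.1 CPM (−0.09 ± 0.11, adjusted p = 0.51). None of these passed the test, while 11 of the 14 astrocyte markers fell. A further list of transcription factors of astrocytes and their precursors held 31 tested genes, of which 25 fell and 1 rose, with a median of −1.15. Hes5, a Notch target that keeps progenitors undifferentiated, showed the largest fall of that list, from 3.38, 3.21, 4.73 and 5.73 CPM to 0, 0.145, 0.0337, 0 and 0.314 CPM, with no overlap (−5.40 ± 0.68, edgeR adjusted p = 5.6e-08). Id1, an inhibitor of basic helix-loop-helix factors, was the one that rose, from 45.5–57.2 to 77.6–103 CPM (0.89 ± 0.14). Id1 rose more in flow-through (2.32 ± 0.15, difference −1.33 ± 0.18, edgeR adjusted p = 7.6e-06).

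Genes for uptake of transmitters fell at large. Of 23 glutamate, GABA and amino acid transport genes, 14 fell and 6 rose, with a median log2 fold change of −1.36. Slc1a2, the main glutamate transporter of the forebrain and cord, was at 11176, 11969, 16115 and 14164 CPM in uninjured and 2451, 2985, 2222, 2586 and 2782 CPM in 2 d mice. The groups were far apart (−2.36 ± 0.13, edgeR adjusted p = 2.0e-15), and the fall exceeded that in flow-through (−0.69 ± 0.23) by −1.56 ± 0.28 (adjusted p = 1.3e-04). The largest fall of the list was that of Slc6a11, the astrocyte GABA transporter, from 3907–4548 to 291–407 CPM (−3.68 ± 0.16). At the other end Slc6a6, a taurine transporter, rose from 12.4–16.4 to 65.5–97.8 CPM (2.53 ± 0.22).

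The endfoot list of water channels, potassium channels and gap junctions fell almost whole, with 18 of 20 genes lower, 1 higher and a median of −1.57. Kcnj10, the potassium channel Kir4.1 that buffers extracellular potassium, dropped from 5211, 5695, 6975 and 6769 CPM to 584, 1289.5, 820.1, 763 and 885 CPM (−2.83 ± 0.16, edgeR adjusted p = 2.2e-15). Gja1, the gap junction protein connexin 43, dropped from 1968, 1985, 2326 and 2013 CPM to 294, 400.1, 369, 331.2 and 329.8 CPM (−2.59 ± 0.15, adjusted p = 5.6e-15). Neither had overlapping groups. Aqp4, the water channel of endfeet, was at 2396, 2740.3, 3240.5 and 2482 CPM and then 764, 1231, 1099, 853 and 824 CPM, a smaller fall without overlap (−1.51 ± 0.18, adjusted p = 3.3e-08). Trpv4, a cation channel that opens on swelling and heat, was the exception and rose at a low level, from 0.254–0.399 to 1.09–1.74 CPM (1.97 ± 0.26).

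Receptors fell as well. Among 32 neurotransmitter and G-protein-coupled receptors, 20 fell and 4 rose, with a median of −1.29. The NMDA receptor subunit gene Grin2c dropped from 90.5–159 to 7.20–10.9 CPM (−3.84 ± 0.19). F2rl1, the protease-activated receptor PAR2, was the highest riser of the list at very low levels. It had at most 0.0194 CPM in uninjured and 0.108–0.397 CPM in 2 d mice, at least 9.13-fold higher. Its fitted log2 fold change, which is not a minimum, was 5.46 ± 1.49. Without uninjured mice 1 and 2 the fitted value was 7.71 and did not pass the test (edgeR adjusted p = 0.0108). Proteins that act on synapses split, with 10 of 23 lower and 5 higher. Tenm4, a teneurin adhesion protein, fell from 32.3–55.5 to 4.67–8.16 CPM (−2.82 ± 0.18), whereas Thbs1, thrombospondin 1, rose from 3.94–5.30 to 487–1472 CPM (7.39 ± 0.41, edgeR adjusted p = 3.3e-14). The rise of Thbs1 exceeded that in flow-through (2.78 ± 0.34) by 4.72 ± 0.49 (adjusted p = 2.5e-07).

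Signals that pattern the nervous system in development were mostly lower. Of 43 Notch, Hedgehog and Wnt genes, 31 fell and 2 rose, with a median of −1.32, and the median over these genes in flow-through was 0.07. Shh, the secreted ligand sonic hedgehog, rose against that trend, from 0.116, 0.579, 0.236 and 0.0693 CPM to 4.28, 2.26, 3.71, 5.82 and 4.74 CPM with no overlap (4.04 ± 0.59, edgeR adjusted p = 7.0e-07). It fell in flow-through (−1.62 ± 0.43), and the changes differed by 5.77 ± 0.75 (adjusted p = 3.6e-06). Growth factors and their receptors were split, with 23 of 53 higher and 16 lower. Ereg, an EGF receptor ligand, had no count in any uninjured library and 0.903–1.42 CPM at 2 d, at least 39.1-fold higher, while Vegfc, a lymphatic growth factor, fell from 1.79–2.92 to 0.235–0.71 CPM (−2.24 ± 0.38).

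**Figure D3:**
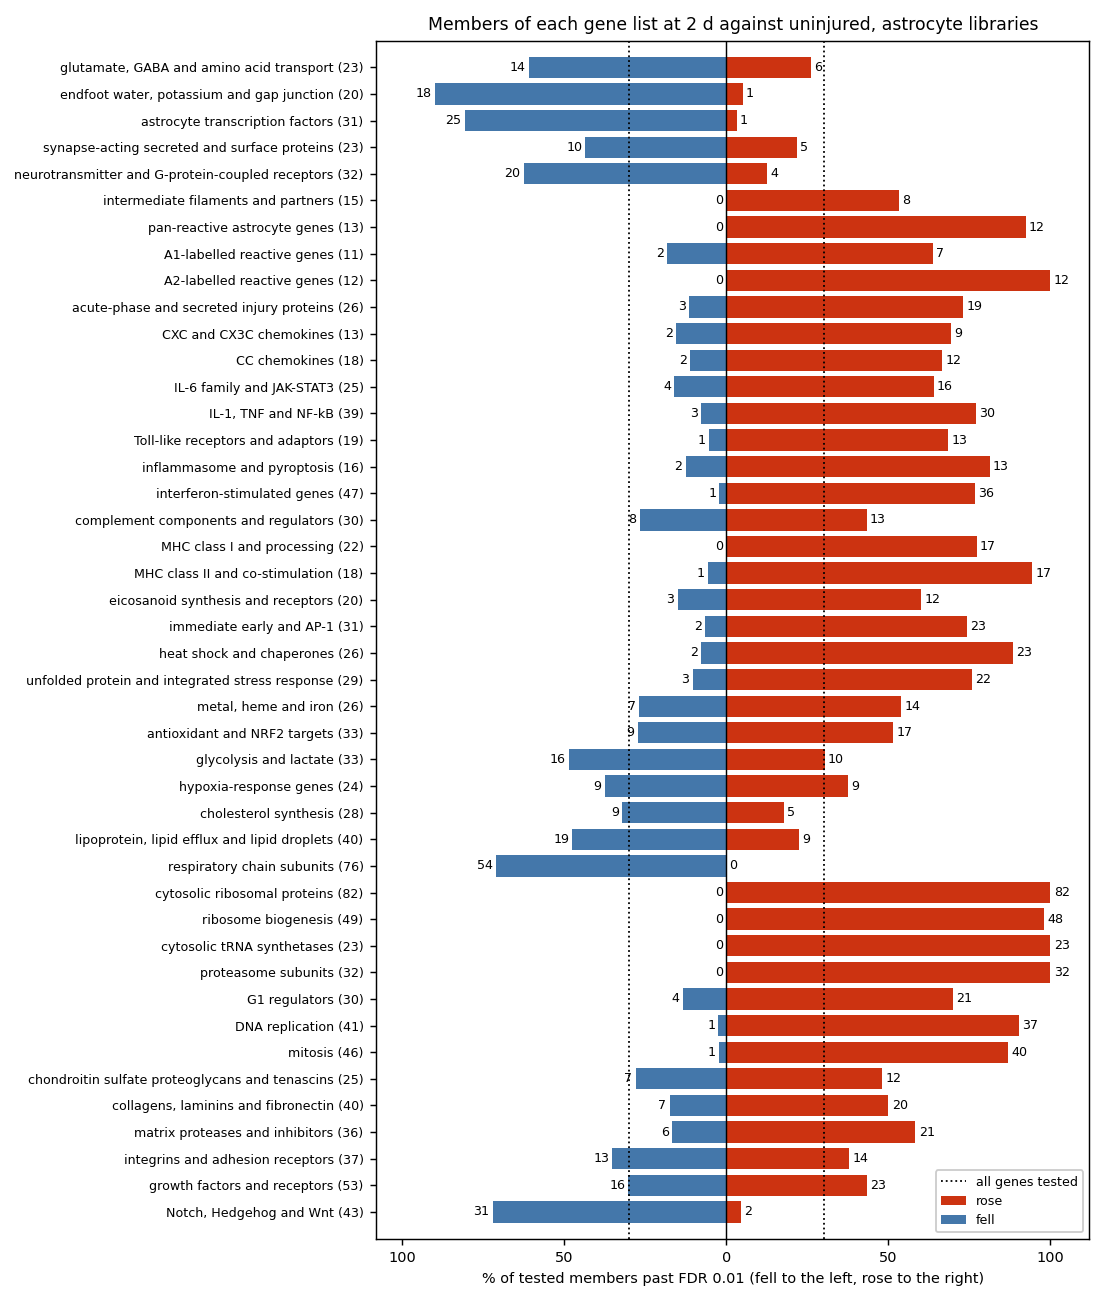
Share of the tested members of each of 44 gene lists (number tested in parentheses) that fell (blue, to the left) or rose (red, to the right) at 2 d in astrocyte libraries, as % past an FDR of 0.01, with the number of genes beside each bar. Dotted lines mark the shares over all genes tested (30.2% higher, 29.9% lower), and the ribosomal, tRNA synthetase and proteasome bars reach 100% rose.

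Genes that mark reactive astrocytes rose, although Gfap did not pass the test. Of 13 genes reported by others as rising in reactive astrocytes of any cause, 12 rose and none fell, with a median of 3.13. In flow-through 11 of these 13 rose, against 26.6% of all genes, and none fell, with a median of 1.92. Relative to flow-through, the change was higher for 3 and lower for 1, against 24.8% and 16.8% of all genes. Vim was at 184.1, 194.3, 138 and 112.2 CPM in uninjured and 2714, 2924, 3348, 3227 and 3308 CPM in 2 d mice (4.30 ± 0.16, edgeR adjusted p = 3.3e-19). Timp1, an inhibitor of matrix metalloproteinases, went from 5.88, 4.78, 3.63 and 4.38 CPM to 534, 604, 627, 709.7 and 586 CPM (7.04 ± 0.20, adjusted p = 4.1e-21), the largest rise of the list, and in flow-through it rose by 7.53 ± 0.36 (difference −0.39 ± 0.30, adjusted p = 0.3). In neither gene did the groups come near each other. Cd44, a hyaluronan receptor, went from 81.4, 95.9, 98.1 and 72.8 CPM to 841, 789.7, 738, 701 and 681 CPM (3.11 ± 0.11, adjusted p = 1.7e-19). Cd44 rose more in flow-through (4.46 ± 0.40, difference −1.24 ± 0.37, edgeR adjusted p = 0.0083). Serpina3n, a secreted serine protease inhibitor, went from 74.7, 95.3, 97.8 and 84.98 CPM to 387, 997, 729, 624 and 839 CPM (3.02 ± 0.27, adjusted p = 1.6e-10). Lcn2, the iron-siderophore carrier lipocalin 2, went from 22.5, 11.53, 7.60 and 9.94 CPM to 85.6, 136, 105, 168 and 232 CPM (3.496 ± 0.38, adjusted p = 9.7e-09). These 3 genes also had no overlap.

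Lists that others named A1 and A2 after 2 kinds of reactive astrocyte both rose. The A2-labelled list rose whole, 12 of 12 genes with a median of 5.84, and the A1-labelled list had 7 of 11 higher and 2 lower with a median of 2.03. In flow-through 10 of 12 A2-labelled genes rose and none fell, and 8 of 11 A1-labelled genes rose and 1 fell. Relative to flow-through, the change was higher for 7 and lower for none of the A2-labelled genes, and higher for 1 and lower for 1 A1-labelled gene. Tgm1, a transglutaminase that cross-links proteins, led the A2 list, from 0.232, 0.551, 0.399 and 0.474 CPM to 787, 572, 680.4, 685 and 577 CPM (10.64 ± 0.26, edgeR adjusted p = 6.1e-22), and rose more than in flow-through by 4.86 ± 0.40 (adjusted p = 1.4e-08). In the A1 list Srgn, a granule proteoglycan of blood cells, rose most (1.56–18.02 to 170.0–411.5 CPM, 4.92 ± 0.49) and Amigo2, an adhesion protein, fell most (9.49–12.2 to 2.43–5.96 CPM, −1.48 ± 0.17). Intermediate filaments and their partners had 8 of 15 genes higher and none lower. Nes, the progenitor filament nestin, rose from 11.9, 18.9, 10.45 and 6.72 CPM to 1084, 699.5, 724, 799 and 781 CPM (6.09 ± 0.34, adjusted p = 2.8e-14). The rise of Nes exceeded that in flow-through (2.21 ± 0.15) by 3.99 ± 0.31 (adjusted p = 6.4e-09). Among 26 acute-phase and secreted injury proteins 19 rose, 3 fell and the median was 3.56, and Itih3, which binds hyaluronan, fell most (953–1357 to 133–218 CPM, −2.76 ± 0.20). In flow-through 18 of 23 of this list rose and none fell, with a median of 3.435.

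Cytokine signalling through the IL-6 family shares the receptor chain gp130, which activates STAT3, and STAT3 in turn induces the feedback inhibitor SOCS3. Of 25 genes of this pathway 16 rose and 4 fell, with a median of 1.54. Il6, a ligand, had no count in any uninjured library and stood at 1.63, 0.482, 0.27, 0.861 and 2.01 CPM at 2 d, at least 35.2-fold higher against 3 counts per library (edgeR adjusted p = 7.1e-05). Osm, the ligand oncostatin M, had at most 0.0231 CPM in uninjured mice and 3.38–8.45 CPM at 2 d, at least 190.1-fold higher. Osmr, its receptor, rose from 7.88, 11.3, 10.7 and 8.57 CPM to 118, 118, 124, 106 and 106 CPM with little spread between mice (3.57 ± 0.13, adjusted p = 1.9e-19). Cntfr, the receptor of ciliary neurotrophic factor, fell from 582–854 to 86.6–97.9 CPM (−3.01 ± 0.11). Stat3, the transcription factor, rose moderately, from 104, 129, 131 and 125 CPM to 248, 222, 203, 202 and 199 CPM (0.82 ± 0.08, adjusted p = 2.0e-10). Stat3 rose more in flow-through (1.56 ± 0.17, difference −0.64 ± 0.18, edgeR adjusted p = 0.0072). Socs3, the inhibitor, rose from 1.86, 2.73, 1.73 and 1.61 CPM to 78.0, 78.6, 74.8, 52.6 and 68.0 CPM (5.15 ± 0.21, adjusted p = 4.1e-18). Socs3 rose in every 2 d mouse above every uninjured mouse, and by 4.05 ± 0.85 more than in flow-through (adjusted p = 5.5e-04). The 250 bases before a RefSeq transcript start of Socs3 (GRCm38.p6, chr11:117969367-117969616, minus strand) are shown because this gene answers to STAT3, with the match to the STAT site TTCNNNGAA in capitals. This start is not the outermost, since the RefSeq span of the gene runs on to 117970336.
Socs3: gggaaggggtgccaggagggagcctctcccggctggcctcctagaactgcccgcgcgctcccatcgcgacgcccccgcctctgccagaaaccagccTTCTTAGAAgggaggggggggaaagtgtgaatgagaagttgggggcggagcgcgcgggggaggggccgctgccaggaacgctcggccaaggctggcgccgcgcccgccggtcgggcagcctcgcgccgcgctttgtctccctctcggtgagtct
This motif was searched on both strands and stands in 7.18% of all 27025 promoter windows of this length. Among the 13590 windows of tested genes it stands in 6.01%, in 6.504% of those of genes that rose and in 5.77% of those of genes that fell. The window of Timp1 holds no match to these letters, nor does that of Osmr, which lies before a transcript start that is likewise inside the span of the gene.

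Signals through IL-1, TNF and NF-kB rose broadly, with 30 of 39 genes higher, 3 lower and a median of 1.34. Nfkbia, the inhibitor IkB-alpha that NF-kB itself induces, rose from 90.9, 72.0, 61.2 and 68.3 CPM to 186, 120.1, 109, 174 and 196 CPM (1.11 ± 0.17, edgeR adjusted p = 2.3e-06). Il1rn, the IL-1 receptor antagonist, rose most, from 0.0363–0.165 to 14.1–37.1 CPM (7.90 ± 0.57), with 8.38 ± 0.47 in flow-through (difference −0.37 ± 0.61, adjusted p = 0.64). Il18, a cytokine of the IL-1 family, fell from 30.9–38.96 to 11.98–17.4 CPM (−1.24 ± 0.11), against −0.37 ± 0.20 in flow-through. Among 19 Toll-like receptors and adaptors 13 rose and Tlr3 alone fell. Tlr13, a sensor of bacterial RNA, went from 0.416–0.779 to 39.3–78.9 CPM (6.58 ± 0.36). Tlr3, a sensor of double-stranded RNA, went from 91.6, 95.6, 124 and 97.1 CPM to 37.1, 41.4, 36.3, 33.5 and 32.98 CPM (−1.49 ± 0.13, adjusted p = 3.1e-11). Tlr3 rose in flow-through (1.89 ± 0.22), a difference of −3.27 ± 0.22 (adjusted p = 1.3e-09). The inflammasome list had 13 of 16 genes higher, led by Mefv, the inflammasome protein pyrin, with at most 0.0387 CPM in uninjured and 1.37–5.46 CPM in 2 d mice.

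Chemokines, the secreted proteins that call leukocytes to a site, mostly rose. Of 13 CXC and CX3C chemokines tested 9 rose and 2 fell, and of 18 CC chemokines 12 rose and 2 fell. A further 3 and 2 members had too few counts to test. Cxcl1, which attracts neutrophils, was at 0.0387, 0.038, 0 and 0 CPM in uninjured and 3.08, 2.06, 3.42, 3.10 and 15.3 CPM in 2 d mice, and mouse 5 stood far above the others (8.01 ± 0.84, edgeR adjusted p = 3.6e-09). Cxcl3, of the same receptor, had no count in any uninjured library and 129, 26.1, 59.5, 52.0 and 131 CPM at 2 d, at least 2663-fold higher. Cxcl10, which attracts T cells, rose from 2.68, 3.26, 2.28 and 1.04 CPM to 33.1, 9.81, 15.2, 18.3 and 25.3 CPM (3.13 ± 0.60, adjusted p = 6.5e-05). None of these 3 had overlapping groups. Ccl2, which attracts monocytes, rose from 0.0968, 0.551, 0.154 and 0.0231 CPM to 92.0, 58.4, 86.3, 60.5 and 61.0 CPM (8.39 ± 0.53, adjusted p = 5.1e-13), and by 3.21 ± 0.62 more than in flow-through (adjusted p = 2.6e-04). Ccl24, an eosinophil attractant, went from at most 0.0760 CPM to 8.26–45.9 CPM. Cxcl14, a chemokine made in healthy tissue, fell from 647–860.2 to 160.4–199 CPM (−1.996 ± 0.11), while it rose in flow-through (1.01 ± 0.16, difference −2.90 ± 0.19, adjusted p = 6.9e-10). The upstream windows of Cxcl1 (chr5:90890995-90891244, plus strand) and Nfkbia (chr12:55492648-55492897, minus strand) are shown because both answer to NF-kB, with the matches to GGGA and TTCC spaced by 2 free bases (either strand) in capitals, which in Cxcl1 are a pair that overlap.
Cxcl1: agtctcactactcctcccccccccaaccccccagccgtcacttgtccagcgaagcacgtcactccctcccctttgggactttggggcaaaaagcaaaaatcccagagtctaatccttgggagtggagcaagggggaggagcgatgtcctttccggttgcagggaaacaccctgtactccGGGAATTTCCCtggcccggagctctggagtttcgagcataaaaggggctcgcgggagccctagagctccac
Nfkbia: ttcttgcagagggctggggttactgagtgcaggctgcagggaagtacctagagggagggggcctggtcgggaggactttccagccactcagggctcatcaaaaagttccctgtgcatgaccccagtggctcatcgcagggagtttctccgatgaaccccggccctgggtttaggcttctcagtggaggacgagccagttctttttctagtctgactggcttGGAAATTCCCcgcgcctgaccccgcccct
This motif stands in 1.17% of all windows and 1.21% of those of tested genes, in 1.46% of those of genes that rose and in 1.04% of those of genes that fell.

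Genes induced by interferon rose in number, 36 of 47 with 1 lower and a median of 1.68, against a median of 2.38 in flow-through. Irf7, the factor that drives type I interferon production, rose from 2.31, 2.72, 1.85 and 1.17 CPM to 17.02, 6.33, 10.1, 13.6 and 8.59 CPM (2.46 ± 0.37, edgeR adjusted p = 1.4e-06). Oas1a, a sensor of double-stranded RNA, rose most (0–1.07 to 5.23–11.6 CPM, 4.20 ± 0.51), and Cmpk2, a mitochondrial nucleotide kinase, was the one that fell (43.3–57.2 to 13.5–34.9 CPM, −1.10 ± 0.27). MHC class I genes and their processing machinery had 17 of 22 higher and none lower, at a median of 0.93 and with Nlrc5, their transactivator, highest (0.508–0.798 to 2.56–6.49 CPM, 2.70 ± 0.40). MHC class II and co-stimulation had 17 of 18 higher, at a median of 2.92. Cd74, the MHC class II invariant chain, went from 45.3, 43.1, 11.8 and 11.98 CPM to 194.5, 122, 198, 125 and 153.4 CPM (2.50 ± 0.36, adjusted p = 1.3e-06), with uninjured mice 1 and 2 above 3 and 4 and all below the 2 d mice. The change of Cd74 in flow-through was −0.64 ± 0.41 (adjusted p = 0.2), a difference of 3.23 ± 0.64 (adjusted p = 3.6e-04). Ctss, the protease cathepsin S that trims the invariant chain, rose from 6.97–10.8 to 474–915 CPM (6.16 ± 0.34), and Icosl, a T cell co-stimulator, fell from 33.8–41.8 to 7.08–10.6 CPM (−2.06 ± 0.12).

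Complement genes, which tag debris and call phagocytes, split. Of 30 genes 13 rose and 8 fell, with a median of 0.25 in astrocyte and 2.05 in flow-through libraries. C3, the central component, fell from 431.4, 549, 632 and 479.9 CPM to 67.0, 129, 99.1, 115 and 101 CPM (−2.35 ± 0.15, edgeR adjusted p = 6.3e-14). C4b, of the classical pathway, fell from 162, 184.2, 236 and 219.8 CPM to 75.9, 125, 89.5, 113 and 107.6 CPM (−0.97 ± 0.12, adjusted p = 6.9e-08). Neither had overlapping groups, C4b rose in flow-through (2.10 ± 0.17), and the changes differed by −2.96 ± 0.23 (adjusted p = 6.4e-09). C3ar1, the receptor of the C3a fragment, rose most, from 0.115–0.68 to 50.6–84.5 CPM (7.11 ± 0.43), and at 2 d it was lower in astrocyte than in flow-through libraries (−1.29 ± 0.24, adjusted p = 1.2e-04). C8g, of the membrane attack complex, fell from 0.878–1.46 to 0.0522–0.292 CPM (−2.78 ± 0.31). The number of complement genes that fell went from 8 to 5 when uninjured mouse 2 was left out. Among 20 eicosanoid genes 12 rose and 3 fell. Ptgs2, the cyclooxygenase COX-2, rose from 0–0.219 to 3.61–9.91 CPM (6.91 ± 0.85), and Ptgis, prostacyclin synthase, fell from 16.6–19.5 to 1.84–3.42 CPM (−2.79 ± 0.22) while it rose in flow-through (2.05 ± 0.31, difference −4.73 ± 0.37, adjusted p = 8.0e-09).

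The immune lists hold many genes that leukocytes also express, and the level at 2 d in astrocyte against flow-through libraries was compared for the genes that rose. Over all genes 57.9% differed between the 2 kinds of library at 2 d, with 30.2% higher in astrocyte and 27.8% higher in flow-through libraries, against 19.9% and 27.6% in uninjured mice, and among 5468 risen genes tested these shares were 36.4% and 26.9%. Of the risen interferon-stimulated genes 4 of 36 were higher in astrocyte and 9 in flow-through libraries, and of the risen MHC class I genes 3 of 17 and 11. Of the risen IL-1, TNF and NF-kB genes 12 of 30 were higher in astrocyte and 2 in flow-through libraries, and of the risen A2-labelled genes 11 of 12 and none. Beside these immune genes stand the pan-myeloid markers, which all rose in the astrocyte libraries and lay below flow-through at 2 d (mean log2 ratio −1.79). The monocyte and the neutrophil lists stood above flow-through at 2 d (1.23 and 2.15). A higher level in astrocyte libraries therefore cannot by itself tell astrocyte from leukocyte RNA. The part of these cells was not tested.

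Stress responses rose in several branches. Immediate early and AP-1 genes, which answer within minutes to signals, had 23 of 31 higher and 2 lower, with a median of 2.37. Atf3, a stress-induced factor, rose from 1.98, 2.71, 1.71 and 1.72 CPM to 37.9, 32.1, 34.3, 35.6 and 32.4 CPM (4.08 ± 0.22, edgeR adjusted p = 4.8e-15). Atf3 rose more in flow-through (5.91 ± 0.25, difference −1.72 ± 0.25, edgeR adjusted p = 1.3e-05). Fosl1, the AP-1 subunit FRA-1, went from 0.019–0.227 to 13.1–24.3 CPM (7.63 ± 0.57) and had no count in flow-through libraries at 2 d. Jund, an AP-1 subunit linked to quiescence, fell from 211–242.2 to 102–169 CPM (−0.66 ± 0.15) and rose in flow-through (1.32 ± 0.30, difference −1.87 ± 0.33, adjusted p = 1.1e-04).

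Heat shock proteins and chaperones, which refold or clear damaged proteins, rose in 23 of 26 genes and fell in 2, at a median of 0.94. In flow-through 7 rose and 12 fell. Background for flow-through is 53.0% of 17682 genes called, 26.6% higher and 26.4% lower. Hspb1 was at 33.9, 42.3, 34.9 and 33.7 CPM in uninjured and 2138, 1871, 1934, 3027 and 2374 CPM in 2 d mice, far apart (5.97 ± 0.23, edgeR adjusted p = 3.6e-18). In flow-through it changed by 1.53 ± 0.23, so the astrocyte rise exceeded it by 4.54 ± 0.29 (adjusted p = 7.3e-10). Hsf1, the factor that induces heat shock genes, fell slightly, from 27.4–32.2 to 19.98–23.2 CPM (−0.41 ± 0.08). The window upstream of Hspb1 (chr5:135887669-135887918, plus strand) is shown because it is the highest riser of the list, with the matches to the heat shock element GAANNTTC in capitals.
Hspb1: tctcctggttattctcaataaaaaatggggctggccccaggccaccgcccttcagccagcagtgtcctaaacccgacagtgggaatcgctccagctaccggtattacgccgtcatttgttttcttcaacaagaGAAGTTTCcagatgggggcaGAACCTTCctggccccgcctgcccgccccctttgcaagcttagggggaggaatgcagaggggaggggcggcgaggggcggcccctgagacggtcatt
This motif stands in 6.78% of all windows and 5.08% of those of tested genes, in 5.19% of those of genes that rose and in 4.85% of those of genes that fell.

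The unfolded protein and integrated stress response, which slow translation and expand the endoplasmic reticulum, had 22 of 29 genes higher and 3 lower, with a median of 1.07. Hspa5, the endoplasmic reticulum chaperone BiP, rose from 292, 277, 302 and 283 CPM to 1122, 817, 1012, 1094 and 926 CPM, without overlap (1.79 ± 0.10, edgeR adjusted p = 2.4e-15). Trib3, a pseudokinase induced by ATF4, rose most (0.0581–0.294 to 4.93–8.55 CPM, 5.50 ± 0.42), and Phgdh, the first enzyme of serine synthesis, fell most (187–226 to 64.0–73.3 CPM, −1.57 ± 0.10). The window upstream of Hspa5 (chr2:34771840-34772089, plus strand) is shown as the classic place of the endoplasmic reticulum stress element, CCAAT and CCACG spaced by 9 free bases, in capitals.
Hspa5: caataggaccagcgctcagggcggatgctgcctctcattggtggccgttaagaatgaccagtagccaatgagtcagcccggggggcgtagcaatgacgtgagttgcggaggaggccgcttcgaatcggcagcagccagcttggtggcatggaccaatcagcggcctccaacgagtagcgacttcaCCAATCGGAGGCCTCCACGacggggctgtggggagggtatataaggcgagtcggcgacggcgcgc
The element stands in 0.122% of all windows and 0.154% of those of tested genes, in 0.167% of those of genes that rose and in 0.0965% of those of genes that fell and in 0.19% of those of genes not called.

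Genes of metal, heme and iron handling had 14 of 26 higher and 7 lower. Hmox1, which degrades heme released by bleeding, rose from 16.4, 15.05, 14.6 and 10.9 CPM to 3192, 1740.2, 2112, 1521 and 1956 CPM (7.21 ± 0.28, edgeR adjusted p = 1.2e-17), and in flow-through by 6.63 ± 0.28 (difference 0.69 ± 0.30, adjusted p = 0.065). Mt2 rose from 1462, 1155, 1233 and 1332 CPM to 2941, 3157, 2919, 3530.0 and 3008 CPM (1.26 ± 0.14, adjusted p = 2.7e-09), and less than in flow-through (3.06 ± 0.34) by −1.69 ± 0.33 (adjusted p = 3.1e-04). Both had groups far apart, with 2 d mouse 1 highest for Hmox1. Slc30a10, a manganese exporter, fell from 22.5–30.6 to 1.02–2.37 CPM (−3.94 ± 0.25). Antioxidant genes and NRF2 targets were mixed, with 17 of 33 higher and 9 lower. Srxn1, sulfiredoxin, which repairs oxidized peroxiredoxins, rose from 62.3–65.3 to 352–458 CPM (2.60 ± 0.08), against a change of −0.47 ± 0.14 in flow-through (difference 3.18 ± 0.16, adjusted p = 4.0e-11), and Sod3, extracellular superoxide dismutase, fell from 128–155 to 36.2–40.8 CPM (−1.89 ± 0.10). The window upstream of Mt2 (chr8:94172368-94172617, plus strand) is shown because metallothioneins are the textbook case of metal response elements, with matches to TGCACNC or TGCGCNC on either strand in capitals.
Mt2: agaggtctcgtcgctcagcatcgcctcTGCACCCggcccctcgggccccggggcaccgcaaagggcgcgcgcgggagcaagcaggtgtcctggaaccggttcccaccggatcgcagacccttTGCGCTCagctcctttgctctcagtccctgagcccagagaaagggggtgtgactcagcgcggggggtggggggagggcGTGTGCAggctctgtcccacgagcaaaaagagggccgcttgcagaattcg
These short letters stand in 21.3% of all windows and 28.6% of those of tested genes, in 27.7% of those of genes that rose and in 31.3% of those of genes that fell.

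Energy metabolism shifted in both directions. Of 33 glycolysis and lactate genes 10 rose and 16 fell, with a median of −0.21. Ldha, lactate dehydrogenase A, rose from 309, 257.3, 283 and 313 CPM to 701, 538, 590.4, 659 and 619 CPM (1.10 ± 0.09, edgeR adjusted p = 2.2e-11), and Slc16a3, the lactate exporter MCT4, from 0.571–1.53 to 37.1–76.2 CPM (5.79 ± 0.32). Ldha rose more in flow-through (2.71 ± 0.13, difference −1.51 ± 0.15, edgeR adjusted p = 2.0e-07). Pdk2, a kinase that restrains pyruvate oxidation, fell from 475–545 to 67.0–89.7 CPM (−2.65 ± 0.10). Nuclear genes of the respiratory chain fell by small amounts, 54 of 76 and none higher, with a median of −0.498 and 5 at least 2-fold lower, led by the complex I subunit gene Ndufv3 (125–142 to 52.8–66.6 CPM, −1.13 ± 0.08). Hypoxia-response genes split evenly, 9 higher and 9 lower of 24. Mxi1, a MYC antagonist, fell from 70.8–84.9 to 25.9–34.9 CPM (−1.42 ± 0.09).

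Cholesterol synthesis genes had no common direction in astrocyte libraries and fell in flow-through. Of 28 genes 5 rose and 9 fell, with a median of −0.15, whereas in flow-through 25 of 29 fell, with a median of −1.43. The number that rose was 3 without uninjured mouse 4. Relative to flow-through, the change in astrocyte libraries was higher for 21 of 29 genes, against 24.8% of 18417 genes over all, where 41.5% differed in either direction. Hmgcs1, the enzyme that makes HMG-CoA, was at 868, 739, 743 and 609 CPM in uninjured and 739, 451, 498, 613 and 476.2 CPM in 2 d mice, with overlap (−0.41 ± 0.14, edgeR adjusted p = 0.0092). Its call was lost in 10 alternative fits, with values of −0.41 to −0.27, and the fall in flow-through was −1.88 ± 0.13 (difference 1.57 ± 0.21, adjusted p = 5.8e-06). Hsd17b7, a late enzyme of the pathway, rose from 24.3–29.5 to 40.8–62.1 CPM (0.83 ± 0.12), and Cyp46a1, which removes cholesterol from neurons, fell from 26.7–30.1 to 3.74–5.74 CPM (−2.54 ± 0.10). Genes of lipoproteins, lipid efflux and lipid droplets had 9 of 40 higher and 19 lower. Ch25h, cholesterol 25-hydroxylase, rose from 0.0194–0.254 to 6.28–14.1 CPM (6.41 ± 0.49), and Lcat, which esterifies cholesterol on lipoproteins, fell from 254.1–279.8 to 13.3–26.9 CPM (−3.75 ± 0.16).

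The machinery of protein synthesis rose without exception or nearly so. All 82 cytosolic ribosomal protein genes rose, with a median of 1.75 and single values from 0.77 to 2.64, and 72 of 82 rose in flow-through, with a median of 1.69. The highest, Rpl17, went from 1.52–3.499 to 11.8–20.6 CPM (2.64 ± 0.29), a low level to be held as uncertain, since ribosomal protein genes have near-identical copies in the genome and their share of the reads was not tested. Ribosome biogenesis genes rose in 48 of 49, with a median of 1.28, against 18 risen and 4 fallen in flow-through. Nop58, a core protein of box C/D nucleolar particles, rose from 10.8, 9.96, 9.90 and 9.49 CPM to 88.3, 66.04, 70.6, 83.2 and 77.9 CPM (2.94 ± 0.12, edgeR adjusted p = 1.5e-18), and by 2.399 ± 0.25 more than in flow-through (adjusted p = 3.1e-07). Cytosolic tRNA synthetases rose in 23 of 23, with a median of 1.18, while in flow-through 3 rose and 10 fell. Rars, arginyl-tRNA synthetase, was highest (25.9–30.4 to 99.6–116 CPM, 1.92 ± 0.09). Proteasome subunits rose in 32 of 32, with a median of 1.06 and Psmd1, of the regulatory cap, highest (86.6–97.8 to 267–304.2 CPM, 1.61 ± 0.09). Relative to flow-through, the change was higher for 21 of 23 synthetase, 33 of 49 biogenesis, 20 of 32 proteasome and 19 of 26 chaperone genes. At 2 d, 21 of the synthetases and 35 of the risen biogenesis genes stood higher in astrocyte libraries, while 57 of the ribosomal proteins stood higher in flow-through.

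Genes of the cell cycle rose in astrocyte libraries and in flow-through. G1 regulators had 21 of 30 higher and 4 lower, DNA replication 37 of 41 higher and 1 lower, and mitosis 40 of 46 higher and 1 lower. Medians were 1.14, 1.17 and 1.96 in astrocyte libraries and 1.76, 1.88 and 4.08 in flow-through. For 27 of 46 mitosis genes the astrocyte change was lower, against 16.8% of all genes, and for none was it higher. Ccnd1, cyclin D1, which starts G1, rose from 7.38, 9.14, 5.42 and 5.27 CPM to 330.1, 471, 432, 549 and 437 CPM (6.03 ± 0.27, edgeR adjusted p = 2.0e-16), and by 3.79 ± 0.23 more than in flow-through (adjusted p = 2.9e-10). Mki67, a marker of dividing cells, rose from 3.71, 2.13, 1.32 and 2.60 CPM to 7.36, 6.27, 7.13, 9.06 and 9.67 CPM (1.70 ± 0.36, adjusted p = 2.0e-04), and by far less than in flow-through (6.81 ± 0.31, difference −5.01 ± 0.38, adjusted p = 5.1e-09). Of the 40 mitosis genes that rose, none was higher in astrocyte and 34 were higher in flow-through libraries at 2 d. Cdt1, which licenses replication origins, rose from 0.907–1.51 to 19.7–27.3 CPM (4.23 ± 0.23), and Rpa1, a single-strand DNA binding subunit, fell slightly (117–135 to 91.2–110.2 CPM, −0.34 ± 0.07). Hmmr, a hyaluronan receptor of the spindle, rose from 0–0.0949 to 0.72–1.40 CPM (4.26 ± 0.57). Racgap1, of the cytokinesis machinery, fell in astrocyte libraries (29.6–37.5 to 20.1–28.3 CPM, −0.51 ± 0.13) and rose in flow-through (1.84 ± 0.13, difference −2.24 ± 0.17, adjusted p = 4.4e-09). Cdkn1c, the cell cycle inhibitor p57, showed the same pair of directions, from 7.16–26.7 to 1.67–3.76 CPM (−2.41 ± 0.36) in astrocyte libraries and 0.93 ± 0.19 in flow-through. Uninjured mice 1 and 2 held its high values (26.7 and 24.1 CPM, against 7.44 and 7.16 CPM in mice 3 and 4).

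Matrix genes moved in both directions. Chondroitin sulfate proteoglycans and tenascins, known for holding back axons, had 12 of 25 higher and 7 lower. Tnc, tenascin C, rose from 25.3, 28.8, 26.2 and 22.4 CPM to 242.4, 256, 281, 259 and 276 CPM without overlap (3.36 ± 0.11, edgeR adjusted p = 4.8e-20), and Tnn, tenascin N, from 0–0.126 to 1.08–2.65 CPM (4.76 ± 0.76). Tnc rose more in flow-through (5.15 ± 0.42, difference −1.69 ± 0.37, edgeR adjusted p = 9.4e-04). Bcan, the brain proteoglycan brevican, fell most (1945–2321 to 129–162 CPM, −3.83 ± 0.12), and more than in flow-through by −3.14 ± 0.21 (adjusted p = 9.2e-10). Collagens, laminins and fibronectin had 20 of 40 higher and 7 lower in astrocyte libraries, and 32 of 40 higher and none lower in flow-through, with medians of 0.69 and 3.29. Fn1, fibronectin, rose from 6.23–56.997 to 485.4–896 CPM (4.56 ± 0.40), and Lama1, a laminin chain, fell from 0.808–1.34 to 0.292–0.65 CPM (−1.23 ± 0.39), a call lost in 9 alternative fits. Fn1 is also a member of the monocyte and macrophage marker list used above. Markers of pericytes and fibroblasts, cells that make much of this matrix, summed to 372 to 845 CPM in uninjured and 546 to 830.2 CPM in 2 d astrocyte libraries, with 1 of 9 risen and 3 fallen.

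Of 36 matrix proteases and inhibitors 21 rose and 6 fell. Serpinb2, the plasminogen activator inhibitor PAI-2, had no count in any uninjured library and 1.79–3.15 CPM at 2 d, at least 75.9-fold higher, with no count in flow-through at 2 d. Mmp15, a membrane-bound matrix metalloproteinase, fell from 41.1–44.6 to 10.47–13.3 CPM (−1.95 ± 0.09). Integrins and adhesion receptors split, 14 of 37 higher and 13 lower. Itga5, the fibronectin receptor chain, rose from 2.02–3.42 to 96.6–145.5 CPM (5.43 ± 0.16), and Cdh4, R-cadherin, fell from 2.80–3.93 to 0.542–0.991 CPM (−2.06 ± 0.21).

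**Figure D4:**
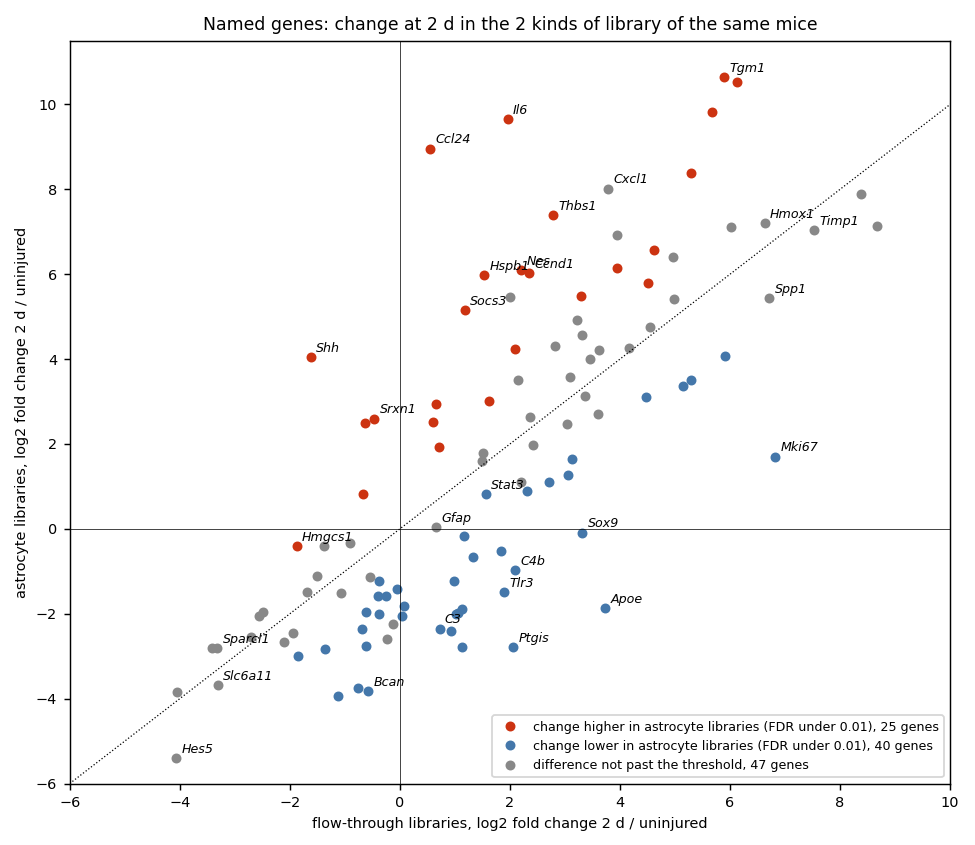
Log2 fold change of 2 d over uninjured mice in flow-through (horizontal) and astrocyte libraries (vertical) for the named genes tested in both, coloured by the test of the difference between the changes. Points above the dotted line of equality, such as Hspb1, Ccnd1 and Shh, changed more upward in astrocyte libraries (25 genes past the threshold), and those below it, such as Mki67, Apoe and Sox9, less (40 genes).

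Taking all genes, 7651 of 18417 changed differently in astrocyte and flow-through libraries, 4564 of them more upward in astrocyte libraries and 3087 less. Scaling moved this balance, since RLE size factors lowered the median difference over all genes from 0.28 to 0.10 (a shift of −0.18) and gave 3846 and 3701 genes. Differences here stand beside a median of 0.28 over all genes. Of 66 named genes with a difference past the threshold 65 kept it under RLE, and none changed sign, the exception being Serpina3n. With the 2 libraries of a mouse as a block the call of a difference was lost for 6 named genes, Cd44 (−1.15, adjusted p = 0.013), Stat3 (−0.61, adjusted p = 0.018), Il6 (7.98, adjusted p = 0.0105), Serpina3n (1.62, adjusted p = 0.026), Il18 (−0.73, adjusted p = 0.012) and Cst3 (−1.07, adjusted p = 0.038), and was gained for Vim (1.81, adjusted p = 0.0067), Srgn (2.49, adjusted p = 0.0036), Fn1 (1.72, adjusted p = 0.00054) and Itga5 (0.57, adjusted p = 0.0071). In 576 genes a rise in astrocyte libraries stood against a fall in flow-through with a difference past the threshold, and in 636 genes the reverse. Genes that fell in astrocyte libraries and rose in flow-through included Apoe, C4b, Cxcl14, Tlr3, Ptgis, Jund, Racgap1, Cdkn1c and Lama1 among those named, and Shh and Hsd17b7 showed the opposite. Sox9 and Aldh1l1, not called in astrocyte libraries, rose in flow-through by 3.32 ± 0.43 and 1.16 ± 0.22.

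The 2 d libraries also stood apart from those at 42 d, whose files share their row order. Between these groups 9265 of 18205 genes (50.9%) differed, 4449 higher and 4816 lower at 2 d. Gfap was lower at 2 d than at 42 d, where it reached 31308 ± 957 CPM (SD, n = 4; log2 difference −0.93 ± 0.11, edgeR adjusted p = 2.3e-08). C3 and C4b, both fallen at 2 d, were at 3276 ± 175 and 579.5 ± 29.4 CPM at 42 d, differences of −5.001 ± 0.17 and −2.50 ± 0.13. Apoe, also fallen at 2 d, was at 50050.0 ± 9436 CPM (−3.40 ± 0.14). Levels of Kcnj10 (1809 ± 313.6 CPM), Slc1a2 (4942 ± 665 CPM), Gja1 (1369 ± 201 CPM) and Aqp4 (3678 ± 974 CPM) at 42 d were all above those at 2 d, by −1.06 ± 0.15, −0.92 ± 0.13, −1.99 ± 0.15 and −1.95 ± 0.19 as 2 d minus 42 d. In the other direction Hmox1 was at 77.3 ± 23.6 CPM at 42 d (4.77 ± 0.25), Nes at 63.7 ± 5.72 CPM (3.68 ± 0.30), Hspb1 at 660.3 ± 184.4 CPM (1.78 ± 0.19) and Ccnd1 at 95.5 ± 16.8 CPM (2.22 ± 0.22), all higher at 2 d. Lcn2, Serpina3n and Cd74 had risen at 2 d and were higher still at 42 d (−1.31 ± 0.33, −1.56 ± 0.24 and −2.38 ± 0.34). By list, 81 of 82 ribosomal protein genes, all 23 synthetases, all 32 proteasome subunits, 47 of 49 biogenesis genes and 24 of 28 cholesterol genes were higher at 2 d than at 42 d. Complement went the other way, with 19 of 30 genes lower at 2 d, as did the endfoot list with 18 of 20.

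**Figure D5:**
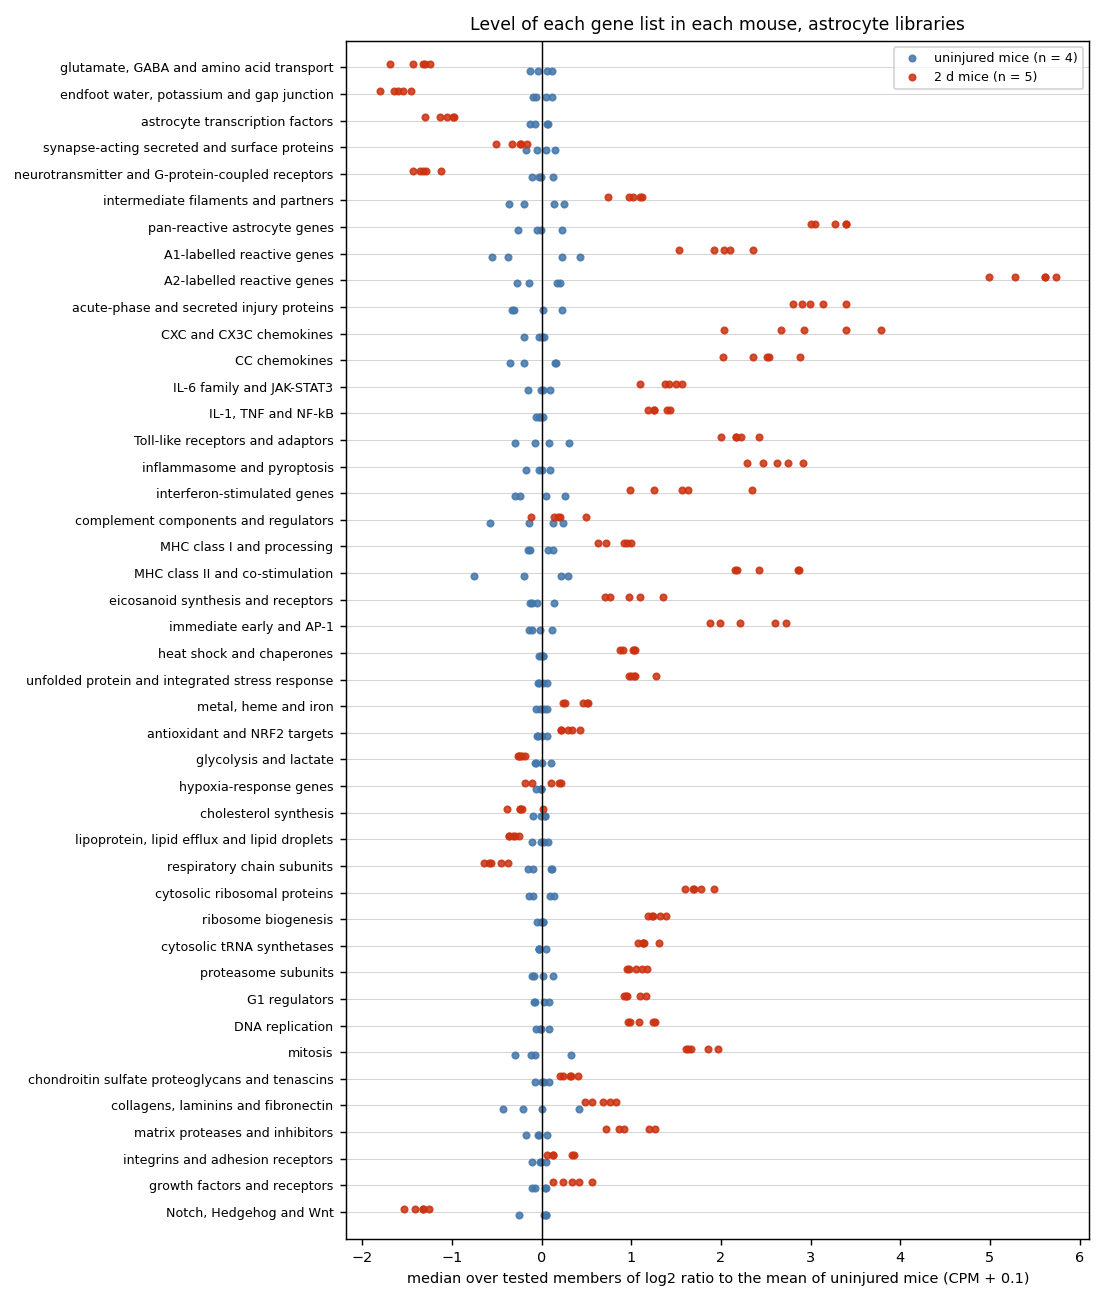
Level of each gene list in each mouse, as the median over its tested genes of the log2 ratio of CPM + 0.1 to the mean of the uninjured mice, for uninjured (blue, n = 4) and 2 d (red, n = 5) astrocyte libraries. The 2 d mice lie close together for heat shock genes (0.88 to 1.04) and spread most for CXC and CX3C chemokines (2.04 to 3.78) and interferon-stimulated genes (0.99 to 2.35).

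Mice differed in some lists more than in others. The median log2 ratio of heat shock genes to uninjured mice ran from 0.88 to 1.04 over the 5 mice at 2 d, that of ribosome biogenesis from 1.19 to 1.39, and that of proteasome subunits from 0.95 to 1.18. Interferon-stimulated genes were at 2.35, 0.99, 1.57, 1.63 and 1.25 in mice 1 to 5. CXC and CX3C chemokines were at 3.78, 2.04, 2.67, 2.93 and 3.39. Mouse 1 was highest and mouse 2 lowest in both, and the same pair bounded immediate early genes (2.73 and 1.88). Mouse 1 also had the lowest transport genes (−1.69, against −1.24 to −1.43 in the others) and endfoot genes (−1.80, against −1.46 to −1.64). Mouse 3 was highest for complement genes (0.49), where mouse 1 lay below the uninjured mean (−0.12).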

How the data were processed

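RNA on tagged ribosomes (astrocyte libraries) and RNA left over (flow-through) were sequenced from poly-A selected, paired-end libraries. The authors worked in Galaxy with Trimmomatic for trimming, HISAT2 for alignment to mm10 and featureCounts at default settings for counting (versions not given in the sources used here), so genes that overlap on opposite strands cannot be told apart. The deposited values are raw counts per gene, without normalization, for 27179 Entrez identifiers, of which 25275 were named and 25082 given an exon length from RefSeq (GRCm38.p6). Identifiers rather than row order joined the files, and 1 unnamed identifier took 4.73% to 12.8% of counts in the astrocyte libraries used and stayed in the totals. Tests used edgeR 4.0.16 (glmQLFit, legacy=TRUE, robust=TRUE, TMM, filterByExpr) in R 4.3.3, with an FDR under 0.01. Changes in astrocyte libraries and the comparison with 42 d came from a fit of 29 female time-course libraries, those in flow-through from 9 libraries, and differences between the changes from all 18. CPM of flow-through are scaled with the astrocyte libraries of the same mice. Figures and tables were made with Python 3.11.15 and pandas 2.3.3. The test was checked on simulated counts.

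Members and lists were chosen with earlier results of these data known, so list counts are descriptions. Named genes were 36 key genes, for each of 44 lists the called member with the highest and the one with the lowest log2 fold change among those without overlap between groups, and the 8 largest gains and losses per kb. Replicate numbers in the titles were taken to pair an astrocyte with a flow-through library of 1 mouse. Deviations of such pairs correlated at 0.297 to 0.467 in uninjured and −0.0769 to 0.126 in 2 d mice, so at 2 d the pairing rests on the titles. Between uninjured and 2 d mice the numbers are only names (r of 0.000514 to 0.0914). Fold bounds use 3 counts per library, worth 0.02985 CPM in uninjured mice on average, and cover counting error only. Alternatives were RLE scaling, no low-count filter, DESeq2 1.42.0, the 2 groups alone, edgeR's newer default fit, an FDR under 0.05, a replicate block, each library left out and, added after seeing the data, uninjured mice 1 and 2 left out together. Marker ratios used a prior count of 2 and list levels by mouse CPM + 0.1. Of 1426 list names 1425 matched, and 27025 promoter windows, each before 1 RefSeq transcript start of a gene, were matched by gene identifier. Males, the mGfap line and postnatal mice were not used here, and 1 gene that the rule names is not reported here.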

Additional observations from a re-analysis of the deposited data

Results flagged for a closer look

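Of 260 groups of 4 or 5 values examined, 16 held a value far from the others by Dixon's criterion, and chance flags about 1 in 20 groups. In uninjured astrocyte libraries these were Gja1 at 2326 CPM in mouse 3 (others 1968 to 2013), Hspb1 at 42.3 CPM in mouse 2 (33.7 to 34.9), Tlr3 at 124 CPM in mouse 3 (91.6 to 97.1), Cmpk2 at 57.2 CPM in mouse 3 (43.3 to 45.2) and Ndufv3 at 142 CPM in mouse 4 (125 to 128). Low-count genes were F2rl1 at 0.0194 CPM in mouse 1, Osm at 0.0231 CPM and Ptgs2 at 0.219 CPM in mouse 4. At 2 d they were Cxcl1 at 15.3 CPM (others 2.06 to 3.42) and Trpv4 at 1.74 CPM (1.09 to 1.24) in mouse 5, Thbs1 at 1472 CPM (487 to 771), Nes at 1084 CPM (700 to 799) and Mxi1 at 34.9 CPM (25.9 to 28.1) in mouse 1, Sod3 at 40.8 CPM in mouse 3 (36.2 to 37.1) and Mmp15 at 13.3 CPM in mouse 2 (10.47 to 10.9). The summed pericyte and fibroblast markers stood at 830 CPM in 2 d mouse 3 against 546 to 603 CPM in the others.

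The change at 2 d differed between astrocyte and flow-through libraries for 7651 genes by edgeR's test of the difference. Among named genes with opposite calls, the astrocyte change was below the flow-through change by −2.96 for C4b, −2.90 for Cxcl14, −3.27 for Tlr3, −4.73 for Ptgis, −1.87 for Jund, −3.24 for Cdkn1c, −2.24 for Racgap1, −2.11 for Lama1 and −5.49 for Apoe on the log2 scale. It was above by 1.60 for Hsd17b7 and 5.77 for Shh.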

How the results depend on the processing

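The 4 counts of changed genes stayed within 1.5 times under every alternative run. Leaving out each library in turn gave 10380 to 10730 genes changed at 2 d in astrocyte libraries (10933 with all), 8006 to 9680 in flow-through (9371), 6418 to 7685 for the difference (7651) and 8720 to 8947 against 42 d (9265). With the replicate block these were 8943, 7375, 7096 and 8067, and the block lost the call of 5 named genes. For astrocyte libraries and against 42 d the block was fitted on the 2 groups alone, which without a block gave 10234 and 8237. For the difference the block was the mouse, while the other blocks joined different mice by replicate number. With an FDR under 0.05 the counts were 12497, 11475, 9892 and 11053. The counts by DESeq2 were 11389, 10629, 8615 and 9771. No called gene was called in the opposite direction under any of these. Leaving out uninjured mice 1 and 2, chosen after seeing the data, gave 9849.

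Of 116 named genes, 6 lost a call under some alternative and the others kept theirs under all. Ptgds had a log2 fold change of −1.96 with all mice, −1.32 (adjusted p = 0.222) under the replicate block and 0.23 (adjusted p = 0.666) without uninjured mice 1 and 2, which held its high values. Hmgcs1 and Lama1 lost their call in 10 and 9 fits. Under the replicate block Oas1a (4.63 against 4.20 without the block, adjusted p = 0.0158) and Cdkn1c (−2.20 against −2.41, adjusted p = 0.0159) also lost it, as did F2rl1 (7.71 against 5.46, adjusted p = 0.0108) without uninjured mice 1 and 2. Of 58 counts of list members of 5 or more, those that moved by over 1.5 times were complement genes that fell (8 to 5 without uninjured mouse 2) and cholesterol genes that rose (5 to 3 without uninjured mouse 4). Depth limits genes with few counts, whose fold changes are bounds, and 5 against 4 mice limits small differences.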
